A study of Mus musculus with 12 samples.

Results

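The AP-1 and immediate early genes described here were chosen by symbol: Jun, Junb, Jund, Fos, Fosb, Fosl1, Fosl2, Atf3, Egr1 and Ier2. Of these 10 genes, 9 had a probe set annotated to that gene alone, and they are 9 of the 22180 genes that could be read in this way on the array. Fosl1 appeared only on a probe set shared with another gene and was not read. Jund had 2 probe sets, and the one with the higher mean was used. The 12 arrays held 4 groups of 3 mouse embryonic stem cell samples, all carrying the MERVL::tdTomato reporter, in which an endogenous retrovirus of 2-cell embryos drives a red fluorescent protein. KO+Mut cells were Dppa2/4 knockout cells transfected with SUMO-deficient Dppa2 and Dppa4 GFP plasmids, and KO+WT cells were knockout cells given the WT-GFP plasmids. KO cells were the Dppa2/4 knockout and parental cells the reporter line without it. All groups were grown with serum replacement and LIF on gelatin. The add-back cells had been lipofected and sorted for GFP, steps that the labels do not give for KO or parental cells, so in each comparison of an add-back with KO or parental cells the proteins and these steps cannot be told apart. The titles number 3 biological replicates in each group, without saying whether these were separate cultures, and no source used here states whether the knockout is 1 clone. Differences between samples are log2 differences of array signal, and p-values measure the spread between these samples.

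AP-1 is a dimer of basic leucine zipper proteins, made of Jun family members alone or of a Jun protein with a Fos or ATF partner, and it binds the palindromic site TGACTCA. Immediate early genes such as Fos, Egr1 and Ier2 are transcribed within minutes of a stimulus, without new protein synthesis, when ERK and other MAP kinases activate factors such as SRF, its ternary complex partners and CREB. In embryonic stem cells FGF signalling through ERK is a well-known input to Egr1 and Fos, and handling, dissociation and stress also raise immediate early transcripts in many cell types.

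The arrays had median signals of 3.73 to 3.88 and lower quartiles of 2.36 to 2.47 (log2, all probe sets), and no 2 of the 12 held identical values. The mean array median was higher in both add-backs, by 0.08 against KO and by 0.06 against parental cells. Dppa2 fell by 1.29 in KO against parental cells (SE 0.21, adjusted p = 0.0259), while Dppa4 differed by -0.84 (SE 0.18, adjusted p = 0.102) and did not pass. On KO arrays Dppa2 still read 8.13 to 8.69 and Dppa4 7.31 to 7.92, above the upper quartiles of all 12 arrays (5.74 to 5.86). Both add-backs exceeded KO by 2.60 to 2.92 for Dppa2 and Dppa4 (highest adjusted p = 2.83e-05). They also exceeded parental cells, with Dppa2 higher by 1.31 in KO+WT and 1.42 in KO+Mut. For Dppa4 these differences were 1.93 and 2.08 (highest adjusted p of the 4 = 0.0154), so the add-back signals were above the parental level. Where the probes lie relative to the deletion is not known here, so that the KO signal checks the labels only in part. Stem cell markers were present on every array, with Pou5f1 at 6.60 to 6.87 and Nanog at 10.25 to 10.76, and the fibroblast markers were mixed. Of 16, 8 lay above the median of every array, among them Fn1 at 9.71 to 10.53, Pdgfra at 5.57 to 8.38, Pdgfrb at 5.15 to 6.42 and Twist1 at 4.84 to 5.41, genes that other cell types also express. Lum, at 1.29 to 1.79, lay below the lower quartile of every array, and Dcn was at 1.62 to 2.48.

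Jun, the central AP-1 subunit, was the member whose signal rose in both add-backs. It read 6.0, 6.53 and 6.25 on KO+Mut replicates 1, 2 and 3 and 5.83, 6.22 and 6.12 on KO+WT replicates, against 5.39, 5.09 and 4.56 on KO and 5.56, 5.33 and 5.0 on parental replicates. Every one of the 6 add-back arrays therefore lay above all 6 arrays without add-back, whose highest value was 5.56. Jun rose by 1.25 in KO+Mut against KO cells (SE 0.22, n = 3 each, adjusted p = 0.0122), a 2.37-fold higher signal, and by 1.04 in KO+WT against KO cells (SE 0.22, adjusted p = 0.0453), a 2.06-fold higher signal. In a bulk sample, more cells with the transcript and more of it per cell cannot be told apart. It was 1 of 9 members higher in each of these comparisons, where 1.12% (KO+Mut) and 0.730% (KO+WT) of all genes were called higher. Lower calls were 0 of 9, against 0.153% and 0.0992% of all genes. Without KO+Mut replicate 2 the KO+Mut call was lost (adjusted p = 0.0777). The KO+WT call was kept without KO replicate 1 (adjusted p = 0.0329) and lost without KO replicate 2 (0.12) or 3 (0.157) and without KO+WT replicate 1 (0.0545), 2 (0.159) or 3 (0.123). A fit restricted to these 6 arrays (adjusted p = 0.128) and centring of each array on its median (0.0604) ended that call too. Set against parental cells, Jun differed by 0.97 in KO+Mut (95% interval 0.50 to 1.43, adjusted p = 0.0597) and by 0.76 in KO+WT (0.29 to 1.23, adjusted p = 0.185). The KO+Mut difference passed with the replicate number as a block (adjusted p = 0.0383).

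Fos, which encodes the partner that forms the classical dimer with Jun, showed a smaller step of the same sign. Its signal was 5.06, 4.96 and 4.64 in KO+Mut and 4.56, 4.71 and 4.81 in KO+WT, against 4.41, 4.41 and 3.75 in KO and 3.86, 3.92 and 4.05 in parental cells. As with Jun, the add-back arrays (4.56 to 5.06) did not overlap the others (3.75 to 4.41). Among all genes 1.75% had all 6 add-back arrays above all 6 others, and Jun and Fos were the 2 of 9 members that did. Fos rose by 0.94 in KO+Mut against parental cells (SE 0.18, adjusted p = 0.0247), a 1.92-fold higher signal, as 1 of 9 members in a comparison where 0.654% of all genes were called higher. Its other differences did not pass, at 0.69 for KO+Mut against KO (95% interval 0.31 to 1.08, adjusted p = 0.092), 0.50 for KO+WT against KO (0.12 to 0.89, 0.275) and 0.75 for KO+WT against parental cells (0.37 to 1.14, 0.0985). The call in KO+Mut against parental cells was kept without KO+Mut replicate 3 (adjusted p = 0.0275) and lost without parental replicate 1 (0.0964), 2 (0.0958) or 3 (0.0669), as it was without KO+Mut replicate 1 (0.0937) or 2 (0.12).

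**Figure D1:**
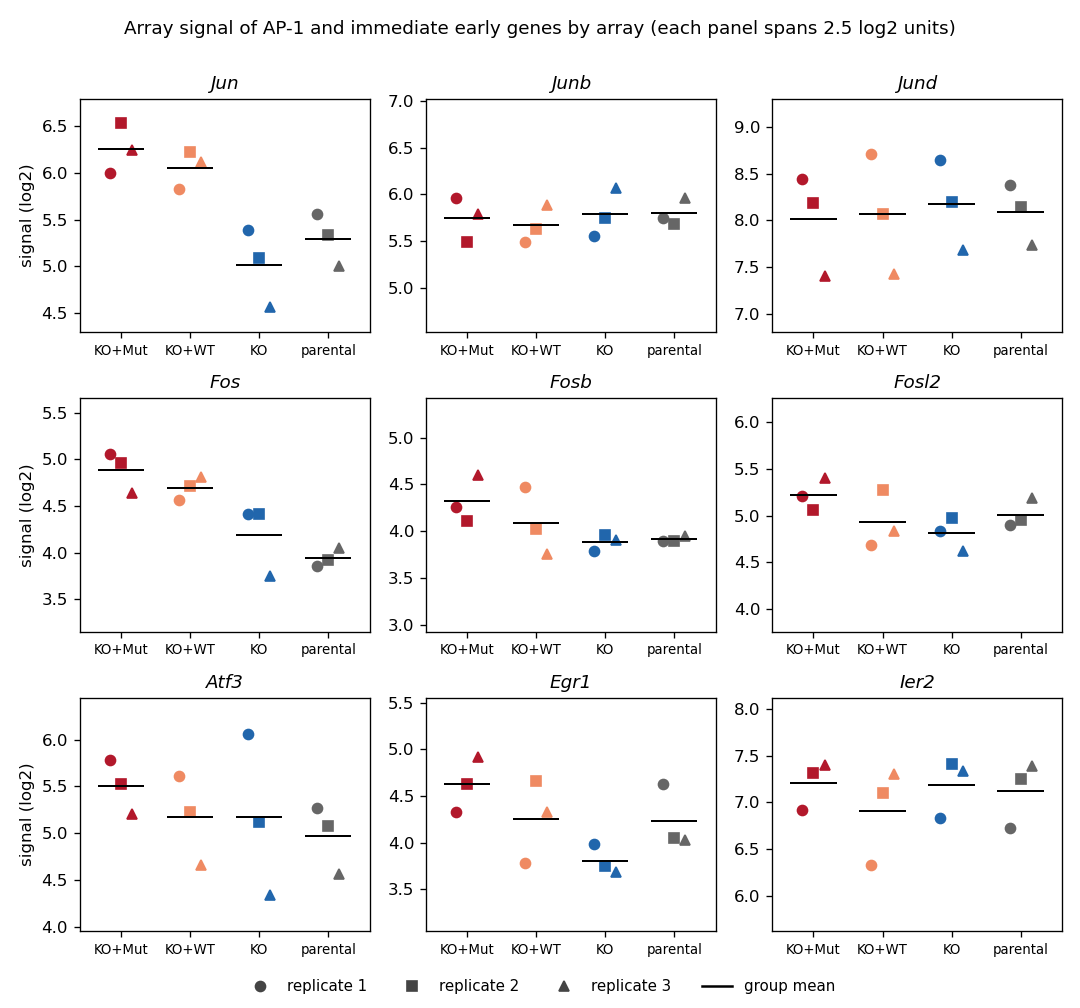
Array signal (log2) of the 9 measured genes on each of the 12 arrays, by group, with marker shapes for the replicate number of the title and a line at the group mean. The 6 add-back arrays of Jun lie between 5.83 and 6.53 and those of Fos between 4.56 and 5.06, above every KO and parental array, while Junb and Jund overlap in all groups.

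RefSeq promoters (assembly GRCm38.p6, 250 bases before to 50 after the annotated start) were found for 7 of the 9 measured members. Those of Jun and Fos are shown because these 2 genes separated the add-back arrays from the rest, and that of Junb because it is the closest comparison, a Jun family gene whose signal did not. Capitals mark matches to the motifs named after the sequences, other than the GC box. Both strands were searched, except for TATAAA, which was searched on the printed strand alone.
Jun, chr4:95052173-95052472, minus strand: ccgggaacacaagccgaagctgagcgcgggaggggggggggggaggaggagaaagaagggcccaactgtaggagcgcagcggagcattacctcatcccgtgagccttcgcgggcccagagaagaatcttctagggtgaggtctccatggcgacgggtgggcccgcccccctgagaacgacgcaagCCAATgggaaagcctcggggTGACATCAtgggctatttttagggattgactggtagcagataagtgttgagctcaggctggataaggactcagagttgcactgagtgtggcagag
Fos, chr12:85473640-85473939, plus strand: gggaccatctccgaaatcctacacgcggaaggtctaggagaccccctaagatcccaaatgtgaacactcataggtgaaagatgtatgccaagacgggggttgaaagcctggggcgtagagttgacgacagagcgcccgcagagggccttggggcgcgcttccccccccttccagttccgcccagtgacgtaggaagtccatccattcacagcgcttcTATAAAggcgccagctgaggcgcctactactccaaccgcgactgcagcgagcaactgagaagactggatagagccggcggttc
Junb, chr8:84978699-84978998, minus strand: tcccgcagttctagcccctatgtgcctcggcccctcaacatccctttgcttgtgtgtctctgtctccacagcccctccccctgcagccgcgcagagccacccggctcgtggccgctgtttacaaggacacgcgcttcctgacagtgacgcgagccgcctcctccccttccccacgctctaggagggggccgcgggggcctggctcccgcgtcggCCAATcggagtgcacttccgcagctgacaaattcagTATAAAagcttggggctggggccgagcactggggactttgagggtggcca
The Jun window held TGACATCA, a variant AP-1 site known for binding Jun and ATF2 at this promoter, 45 bases before the start. It also held the motif CCAAT, 65 bases before the start. TGACATCA occurred in 3.62% of the 32851 promoters of that length in the table and in no other of the 7 member promoters. The shorter CCAAT was in 37.4% of promoters and, among members, also in the Junb and Atf3 windows. The Fos window held TATAAA, 33 bases before the start, which 8.32% of promoters held, and the Junb window held it at the start itself. The AP-1 site TGACTCA (5.2% of promoters) was in 0 of the 7 windows. So were the CRE, the palindrome TGACGTCA bound by CREB and ATF proteins (1.79%), and the CArG box bound by SRF (1.63%). Only full matches inside the windows were counted, so other variants of these sites and sites further from the start were missed. The Fos window, for instance, holds tgacgta, which shares its first letters with the CRE and was not counted. The GC box GGGCGG, searched on both strands and not marked, was in 5 of the 7 windows and in 35.7% of all promoters. These are matches of letters in a window and were not tested for binding.

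The other Jun family genes did not pass in any comparison. Junb, whose protein is a weaker activator than Jun, lay between 5.49 and 6.07 on all 12 arrays. It differed by -0.04 in KO+Mut (95% interval -0.40 to 0.33) and by -0.12 in KO+WT (-0.48 to 0.24) against KO cells, so that both intervals lay below the differences fitted for Jun. Jund, which is transcribed steadily in many tissues, ranged from 7.40 to 8.71 and differed by -0.17 (-0.91 to 0.58) and -0.11 (-0.85 to 0.63). Its wide intervals came with a spread inside each group, described further on. The second Jund probe set, 6.55 to 7.59 over the 12 arrays, also overlapped in all groups.

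Among the other Fos family genes, Fosb and Fosl2 encode further partners of Jun proteins. Fosb read 4.26, 4.11 and 4.60 in KO+Mut and 4.48, 4.03 and 3.75 in KO+WT, against 3.78, 3.96 and 3.91 in KO and 3.89, 3.89 and 3.95 in parental cells. The KO+Mut arrays were above all KO and parental arrays, and the KO+WT arrays spanned them. Fosl2 read 5.21, 5.06 and 5.40 in KO+Mut and 4.69, 5.28 and 4.83 in KO+WT, against 4.84, 4.97 and 4.62 in KO and 4.90, 4.95 and 5.19 in parental cells. Here KO+Mut exceeded each KO array but overlapped the parental ones. The differences of KO+Mut from KO were 0.44 for Fosb (95% interval 0.06 to 0.81, adjusted p = 0.314) and 0.41 for Fosl2 (0.05 to 0.77, adjusted p = 0.319).

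Egr1, a zinc finger factor and a standard readout of ERK signalling, had signals of 4.33, 4.63 and 4.92 in KO+Mut and 3.78, 4.66 and 4.33 in KO+WT, against 3.99, 3.74 and 3.68 in KO and 4.63, 4.05 and 4.02 in parental cells. KO was the lowest group, with all of its arrays under all KO+Mut and all parental arrays, while KO+WT replicate 1 fell inside the KO range. Egr1 differed by 0.82 in KO+Mut against KO (SE 0.23, 95% interval 0.32 to 1.32, adjusted p = 0.133), by 0.45 in KO+WT against KO (-0.05 to 0.95, adjusted p = 0.474) and by -0.43 in KO against parental cells (-0.93 to 0.07, adjusted p = 0.816). None of these passed. Atf3, a stress-induced ATF partner of Jun, ran from 5.21 to 5.79 in KO+Mut cells and 4.66 to 5.62 in KO+WT, against 4.34 to 6.06 in KO and 4.56 to 5.27 in parental cells. Ier2, a small nuclear protein gene of the first transcriptional wave, ran from 6.92 to 7.40 in KO+Mut and 6.33 to 7.30 in KO+WT, against 6.83 to 7.41 in KO and 6.73 to 7.39 in parental cells. For both genes the 4 ranges overlapped, and the largest difference between groups was 0.54 for Atf3 (KO+Mut against parental, 95% interval -0.25 to 1.33, adjusted p = 0.639). With the replicate number as a block that interval was 0.13 to 0.95 (adjusted p = 0.155).

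Counted over the 9 members, KO+Mut arrays lay entirely above KO arrays for 5 genes (Jun, Fos, Fosb, Fosl2 and Egr1) and entirely below for 0, where 9.24% of all genes lay above and 8.77% below. Of these 5 genes 1, Jun, passed after adjustment over all genes. In KO+WT against KO, 2 members (Jun and Fos) lay entirely above and 0 below, where 8.61% and 7.43% of all genes did. The median difference of the members was 0.41 in KO+Mut and 0.12 in KO+WT against KO, beside medians of -0.0069 and -0.0008 over all genes. Both comparisons use the same 3 KO arrays. Against parental cells, 3 members lay entirely above in KO+Mut (Jun, Fos and Fosb, background 8.63%) and 2 in KO+WT (Jun and Fos, background 8.05%). Entirely below were 0 members in either, where 9.38% and 7.80% of all genes were. Called in KO+WT against parental cells were 0 of 9 members by limma (background 0.320% higher), of which 2 (Jun and Fos) had an unadjusted p under 0.05 and a higher signal (background 6.04%) and 0 a lower one (background 4.68%).

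**Figure D2:**
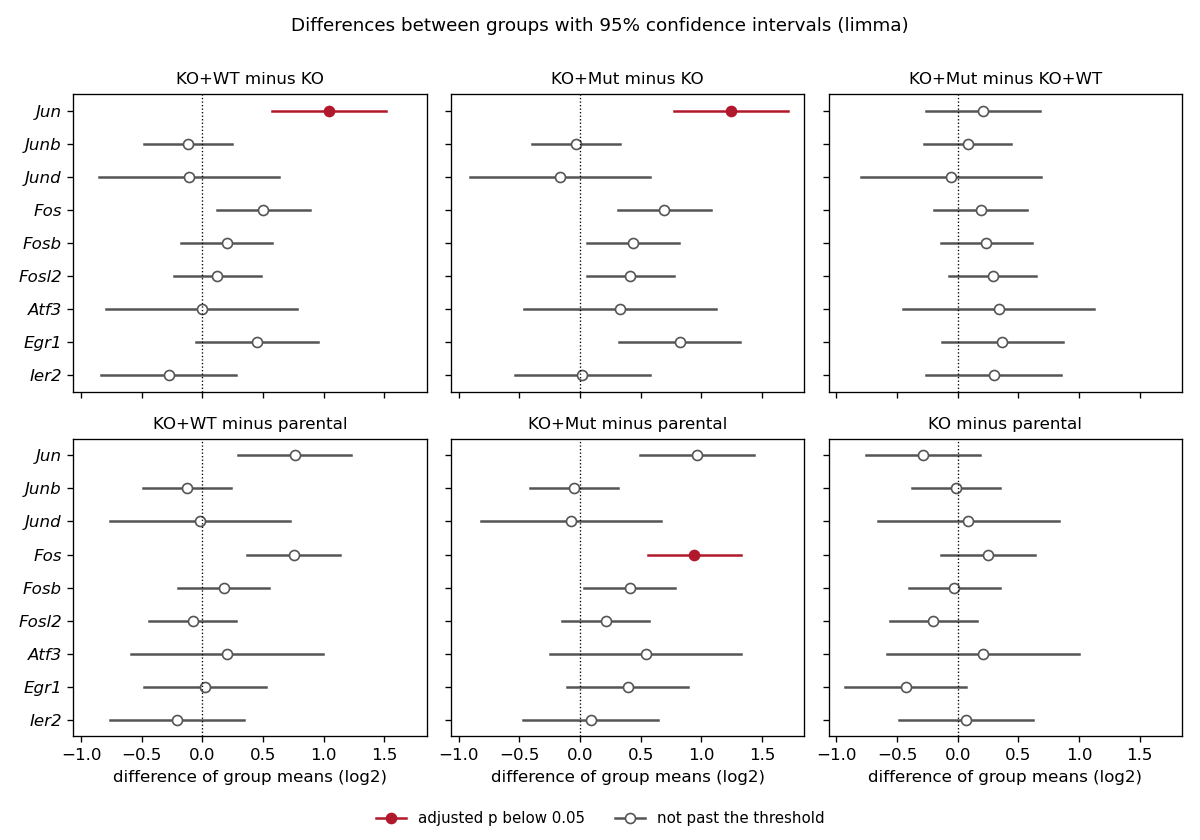
Differences of group means (log2) with 95% confidence intervals from limma, without the replicate block, for the 9 genes in the 6 comparisons, filled where the adjusted p was below 0.05. Jun was called in KO+Mut and in KO+WT against KO and Fos in KO+Mut against parental cells, and all intervals in the comparisons of KO+Mut with KO+WT and of KO with parental cells include 0.

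Loss of Dppa2 and Dppa4 alone was not accompanied by a called member. In KO against parental cells 0 of 9 members passed in either direction (0.0361% of all genes were called higher and 0.203% lower), and 0 had an unadjusted p under 0.05 in limma, where 3.00% of all genes were higher and 3.94% lower at that level. Differences ran from -0.43 (Egr1) to 0.25 (Fos), with a median of -0.01. Jun differed by -0.28 (95% interval -0.75 to 0.19, adjusted p = 0.932), and 1 member, Egr1, had KO arrays entirely below parental arrays, where 6.83% of all genes did. Entirely above were 0 members, against 6.11% of all genes.

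The comparison of the add-backs, both transfected and sorted, asks whether SUMO modification of Dppa2 and Dppa4 bears on these genes. By limma 0 of 9 members passed, and 0 of all 22180 genes did (0.00% in each direction), with 0 members at an unadjusted p under 0.05 in the fit without the replicate block, where 1.38% of all genes were higher and 1.66% lower. KO+Mut averaged higher than KO+WT for 8 of 9 members, where 47.7% of all genes did. The differences were 0.37 for Egr1 (95% interval -0.13 to 0.87), 0.34 for Atf3 (-0.45 to 1.13), 0.30 for Ier2 (-0.26 to 0.85), 0.29 for Fosl2 (-0.07 to 0.65) and 0.24 for Fosb (-0.14 to 0.61). Jun differed by 0.21 (-0.26 to 0.67) and Fos by 0.19 (-0.19 to 0.58), and the groups overlapped for all 9 members, where 3.07% of all genes lay entirely above and 3.62% entirely below. With the block 0 members passed as well, but the interval of Ier2, higher in KO+Mut in all 3 same-numbered pairs, no longer included 0 (0.06 to 0.54, unadjusted p = 0.0211, adjusted p = 0.873), against -0.26 to 0.85 without it. Against KO cells with the block, Ier2 differed by -0.28 in KO+WT (95% interval -0.52 to -0.04, adjusted p = 0.206). In KO+Mut it differed from KO by 0.02 (-0.22 to 0.26, adjusted p = 0.95). Between the add-backs the intervals allow a difference for Jun of up to 0.67, so that the test does not show that the 2 forms act alike.

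Other genes of the pathway were read from lists of immediate early genes, bZIP partners, upstream signalling genes, feedback inhibitors and AP-1 targets. Of 27 other immediate early genes, such as Egr2, Nr4a1, Myc and Zfp36, 0 passed in any of the 6 comparisons as fitted without the replicate block. Their median difference was 0.11 in KO+Mut and 0.10 in KO+WT against KO. The smallest p belonged to Btg2, an antiproliferative gene, with 6.78, 7.42 and 7.03 in KO+Mut against 6.04, 6.28 and 6.46 in parental cells (difference 0.82, SE 0.20, adjusted p = 0.0892). These groups did not overlap, and the difference passed with the replicate number as a block (adjusted p = 0.00878). KO cells read 6.36, 6.86 and 6.93 for Btg2, a difference of 0.46 from parental cells (adjusted p = 0.687). KO+Mut differed from KO by 0.36 (adjusted p = 0.508). Rhob, a small GTPase gene, differed by 0.50 in KO+WT (adjusted p = 0.28) and by 0.41 in KO (0.602) against parental cells.

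None of the 14 measured bZIP partners passed in the fit without the replicate block. Atf2, whose protein pairs with Jun, averaged 8.48 in KO+Mut and 8.47 in KO+WT against 7.93 in KO and 8.13 in parental cells. The KO+Mut difference from KO of 0.56 (SE 0.17, adjusted p = 0.176) did not pass. Against parental cells Atf2 differed by -0.20 in KO (adjusted p = 0.947) and by 0.35 in KO+Mut (0.476). Batf2 differed by -0.41 in KO+Mut against parental cells (adjusted p = 0.337). Of 25 genes of upstream signalling 18 were measured and 0 passed. In KO+Mut against KO 3 of these 18 differences were positive, where 48.7% of all genes were, and the median was -0.12. Elk3, an SRF partner, differed by -0.44 in that comparison (adjusted p = 0.202). Against parental cells Elk3 differed by 0.26 in KO (0.835) and by -0.18 in KO+Mut (0.692). The kinase gene Rps6ka3 differed by -0.37 in KO+Mut (adjusted p = 0.217) and by -0.32 in KO (0.539) against parental cells.

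The 14 feedback inhibitors, which include MAP kinase phosphatases and Sprouty genes, had 0 calls against KO. Against parental cells each add-back had 1 lower call, of a different gene, Dusp4 in KO+Mut and Dusp10 in KO+WT. Dusp4, an ERK phosphatase gene induced by ERK itself, read 6.11, 6.65 and 5.98 in KO+Mut against 6.98, 7.52 and 7.21 in parental cells. It fell by 0.99 (SE 0.19, adjusted p = 0.027), and in KO cells it was already at 6.29, 6.55 and 6.15 (difference from parental -0.91, adjusted p = 0.0995). The Dusp4 call was lost on 6 arrays (adjusted p = 0.0755). Leaving out parental replicate 2 (0.132) or 3 (0.0908) or KO+Mut replicate 1 (0.101) or 3 (0.106) also ended it. Dusp10, a phosphatase gene acting on JNK and p38, fell by 0.61 in KO+WT against parental cells (SE 0.12, adjusted p = 0.0475). That call was lost without any 1 of the 6 arrays. The adjusted p was 0.151, 0.143 and 0.164 when parental replicate 1, 2 or 3 was left out, and 0.135, 0.0584 and 0.128 when KO+WT replicate 1, 2 or 3 was. It was also lost in the fit of 6 arrays (0.17) and with trend and robust variances (0.0636). Lower calls made up 0.338% of all genes in KO+Mut and 0.230% in KO+WT against parental cells.

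Of the 16 measured AP-1 targets, such as Mmp9, Plau, Cd44 and Hmox1, 0 passed in any comparison as fitted on all 12 arrays, and Ccnd1 and Timp1, of smallest p, passed under some alternatives. Their median difference from KO was -0.02 in KO+Mut and 0.07 in KO+WT. Ccnd1, the cyclin D1 gene, averaged 5.72 ± 0.38 in KO+WT and 6.70 ± 0.21 in parental cells (SD, n = 3 each), a difference of -0.99 (adjusted p = 0.0728; 0.0208 with the replicate block and 0.036 without KO+WT replicate 3). Ccnd1 also differed by -0.46 in KO against parental cells (adjusted p = 0.735) and by -0.53 in KO+WT against KO (0.351). Timp1, a metalloproteinase inhibitor gene, averaged 6.02 ± 0.15 in KO+Mut and 6.55 ± 0.08 in KO cells, a difference of -0.52 (adjusted p = 0.0677). It passed after median centring (-0.60, adjusted p = 0.0378) and without genes under percentile 25 (0.0469).

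**Figure D3:**
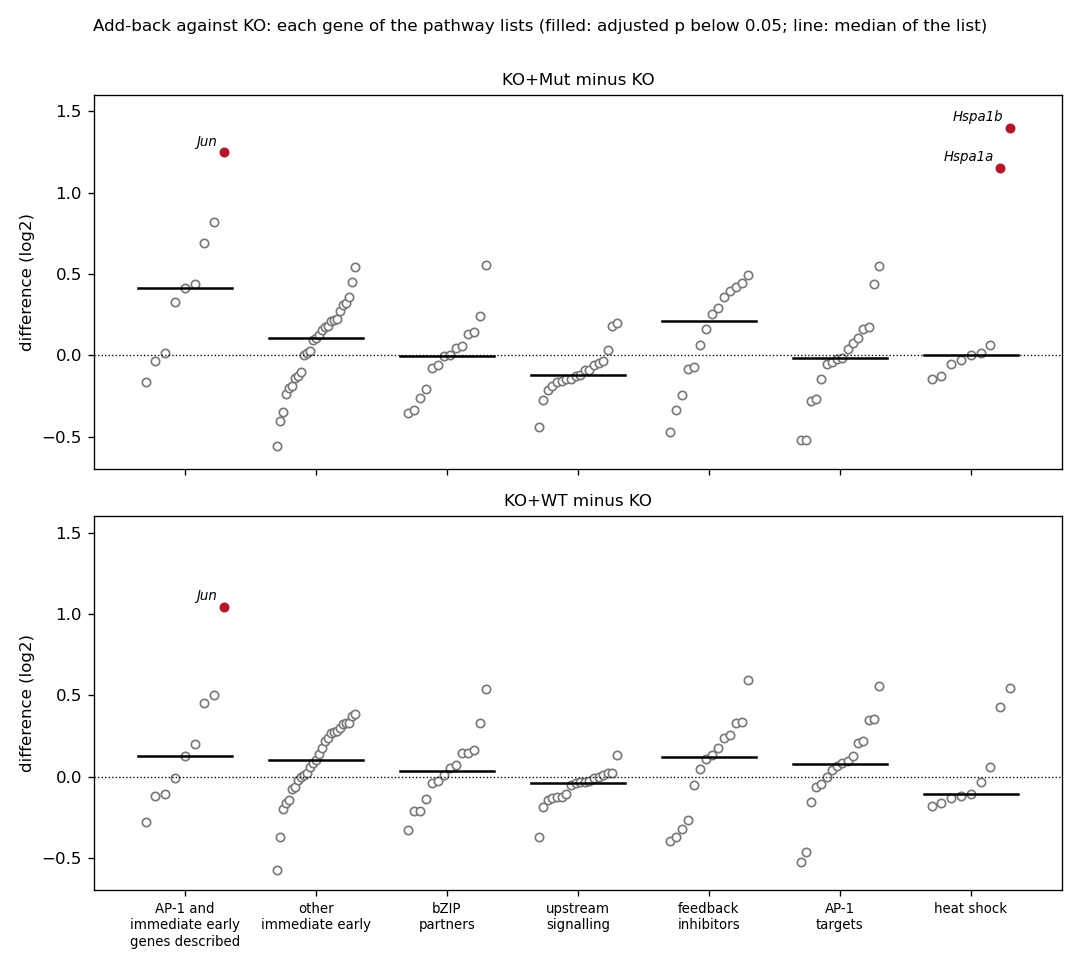
Difference from KO (log2) of every measured gene of the lists, in KO+Mut (upper panel) and KO+WT (lower panel), filled and named where the adjusted p was below 0.05, with a line at each list's median. Jun stands at 1.25 and 1.04, Hspa1b and Hspa1a at 1.40 and 1.15 in the upper panel, and no gene of the other 5 lists is filled.

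Stress and cell type markers were read beside these values. Of 9 heat shock genes, the inducible chaperone genes Hspa1b and Hspa1a rose in KO+Mut against KO cells, by 1.40 (SE 0.20, adjusted p = 0.00311) and 1.15 (SE 0.25, adjusted p = 0.0456). They encode nearly identical proteins, so their probe sets may share signal. Hspa1b read 6.56, 6.73 and 7.29 in KO+Mut and 6.10, 6.26 and 5.68 in KO+WT, against 5.33, 5.68 and 5.38 in KO cells. Its difference of 0.55 in KO+WT against KO did not pass (adjusted p = 0.292). In the direct comparison of KO+Mut with KO+WT, Hspa1b differed by 0.85 (SE 0.20) and Hspa1a by 0.73 (SE 0.25). Neither passed after adjustment over all genes, so no difference between the add-backs was called for these genes. The Hspa1a call in KO+Mut against KO was lost in the fit of 6 arrays (adjusted p = 0.0936), after quantile normalization (0.0734) and after centring (0.0649). It was lost too without KO replicates 1, 2 and 3 (0.145, 0.095 and 0.142) and without KO+Mut replicates 1 and 3 (0.0909 and 0.109). Against parental cells, Hspa1b rose by 1.31 (adjusted p = 0.00573) and Hspa1a by 1.28 (0.0301) in KO+Mut, the second call being lost on 6 arrays (0.0655), without parental replicate 1 (0.089), 2 (0.0814) or 3 (0.136) and without KO+Mut replicate 1 (0.063) or 3 (0.0776). The other 7 heat shock genes did not pass, and the mean of all 9 lay at 7.73 to 8.17 in KO+Mut and 7.45 to 7.79 in KO+WT, against 7.47 to 7.76 in KO and 7.48 to 7.73 in parental cells. The mean of 12 stem cell markers was 8.72 to 8.89 in KO+Mut and 8.77 to 8.90 in KO+WT, against 8.99 to 9.02 in KO and 8.97 to 9.01 in parental cells. As fitted on all 12 arrays none of these markers passed, with Sox2 at -0.40 and Fgf4 at -0.53 in KO+Mut against parental cells (adjusted p = 0.118 and 0.139). Both passed with the replicate block (0.0344 and 0.021), and Sox2 also with trend and robust variances (0.0308).

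The mean of 16 fibroblast markers was 4.28 to 4.41 in KO+Mut and 4.30 to 4.36 in KO+WT, against 4.23 to 4.30 in KO and 4.30 to 4.46 in parental cells, with 0 calls. In that list Thy1 differed by 0.52 in KO+Mut against KO (adjusted p = 0.0954), and Pdgfra, which marks primitive endoderm as well, by -1.76 in KO+Mut against parental cells (adjusted p = 0.0589). Pdgfra passed with the block (5.81e-05), with trend and robust variances (0.0395), without genes under percentile 25 (0.0499) and without parental replicate 1 (0.0275). Its difference in KO against parental cells was -1.24 (adjusted p = 0.418). The mean of 12 endoderm markers was 5.37 to 5.46 in KO+Mut and 5.47 to 5.53 in KO+WT, against 5.35 to 5.78 in KO and 5.89 to 6.45 in parental cells. Of these, Lamb1 fell by 0.95 and 0.92 and Lama1 by 0.95 and 0.94 in KO+Mut and KO+WT against parental cells (highest adjusted p = 0.0477). KO cells already differed from parental cells by -0.76 for Lamb1 (adjusted p = 0.0914) and -0.73 for Lama1 (0.228). Fitted on 6 arrays, the Lama1 calls (adjusted p = 0.064 and 0.146) and that of Lamb1 in KO+WT (0.124) were lost. The Lamb1 call was lost in KO+Mut without KO+Mut replicate 3 (0.0527) and in KO+WT without parental replicate 2 (0.0902) or 3 (0.0901) or KO+WT replicate 2 (0.0854) or 3 (0.0804). The Lama1 calls were lost without parental replicate 2 or 3 (0.132 and 0.141 in KO+Mut, 0.194 and 0.182 in KO+WT) and without any 1 add-back array of their comparison (0.118, 0.0556 and 0.0941 without KO+Mut replicate 1, 2 or 3, and 0.135, 0.0773 and 0.131 without KO+WT replicate 1, 2 or 3). The part of the heat shock, stem cell and endoderm values in the Jun and Fos differences was not tested.

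Within the groups, some members varied with the replicate number of the titles. Jund read 8.44, 8.19 and 7.40 on KO+Mut replicates 1, 2 and 3 and 8.71, 8.07 and 7.42 in KO+WT, against 8.65, 8.20 and 7.68 in KO and 8.38, 8.15 and 7.74 in parental cells. The array numbered 1 was thus the highest and the array numbered 3 the lowest in all 4 groups. Atf3 had that pattern too, with 5.79, 5.52 and 5.21 in KO+Mut and 5.62, 5.23 and 4.66 in KO+WT, against 6.06, 5.12 and 4.34 in KO and 5.27, 5.07 and 4.56 in parental cells. Of all genes 2.97% shared this order in all 4 groups. Ier2 was lowest on the array numbered 1 in all 4 groups. The pooled within-group SD was 0.55 for Atf3, 0.51 for Jund and 0.37 for Ier2, against 0.21 to 0.33 for the other 6 members. For Jun the numbers had no common order: replicate 1 was the highest array in KO and parental cells and the lowest in both add-backs.

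**Figure D4:**
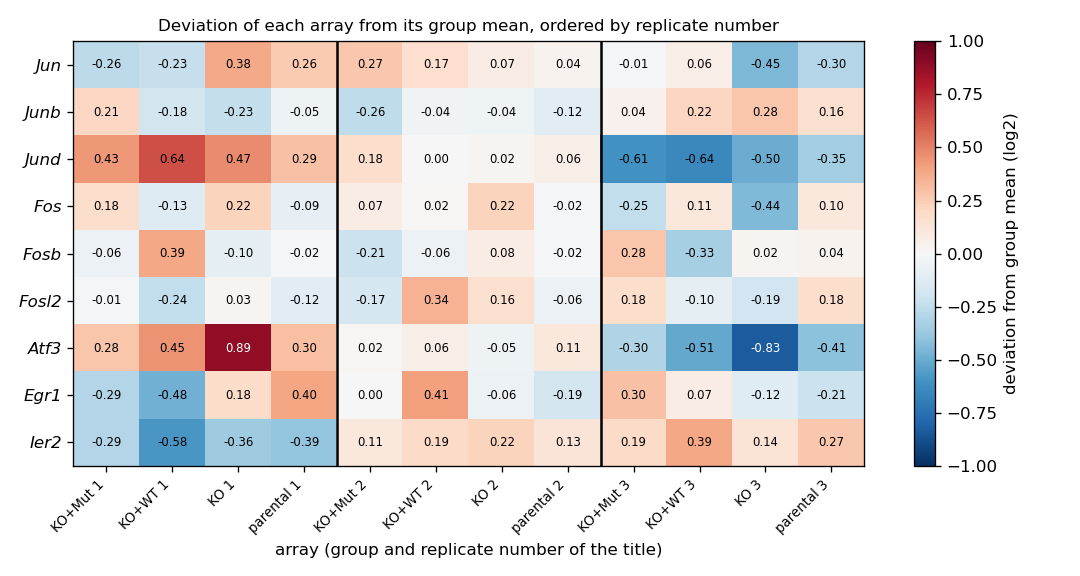
Deviation (log2) of each array from its group mean for the 9 genes, with arrays ordered by the replicate number of their titles. The 4 arrays numbered 1 are above their group means for Jund and Atf3 and below for Ier2, and the 4 numbered 3 are below for Jund and Atf3.

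Genes whose pattern over the 12 arrays was most like that of the called members were found by the root mean square difference of values centred on each gene's mean. Nearest to Jun, whose own root mean square about its mean was 0.57, were the membrane protein genes Marveld1 (0.14), Crim1 (0.17) and Tspan18 (0.19). Marveld1 averaged 7.40 ± 0.23 in KO+Mut and 7.07 ± 0.33 in KO+WT, against 6.05 ± 0.35 for KO and 6.24 ± 0.23 for parental arrays (SD, n = 3 each). Nearest to Fos, whose own value was 0.42, were the neuropeptide receptor gene Adcyap1r1 (0.14), Srsy (0.17) and the growth factor gene Fgf18 (0.18). Adcyap1r1 averaged 4.36 ± 0.19 in KO+Mut and 4.22 ± 0.22 in KO+WT, against 3.58 ± 0.25 in KO and 3.61 ± 0.09 in parental cells. These genes were picked for their likeness over the same arrays, so their differences between groups are a description.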

How the data were processed

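RNA of 12 mouse embryonic stem cell samples was measured, per the labels' protocols, on Affymetrix arrays with a biotin label. For each array the authors deposited a log2 signal of 41345 probe sets, made with the Transcriptome Analysis Console, per the submitters' processing notes. Not given in the sources used here were its version, the background correction, the normalization and the build. The range of values showed the log2 scale. The number of arrays limits the precision.

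GEO's annotation of the array gave 1 symbol to 23521 probe sets, several to 1814 and none to 16010. RefSeq identifiers matched 23328 of the first, and 0 symbols changed. A gene with more than 1 probe set was represented by that of highest mean. Groups were compared with limma 3.58.1 in R 4.3.3 (lmFit, eBayes, 1 mean per group, all 12 arrays), with two-sided p-values adjusted by Benjamini-Hochberg over 22180 genes and a threshold of 0.05. The fit was tested on simulated data with independent noise on each array, which does not test it under the correlation of same-numbered arrays. Members and lists were chosen with earlier results of these data known. Named were all members, list genes past the threshold (at most 4 a list and comparison, or 2 of smallest p where none passed), and the 3 genes most like each called member. Dppa2 and Dppa4 were read as the targeted genes.

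Alternatives were a replicate block, median centring, a second quantile normalization, a filter at percentile 25, trend and robust variances, fits of 6 arrays, averaged probe sets and each array left out. Same-numbered arrays deviated from their group means with correlations above 0.1 in every pair for KO against parental (0.15 to 0.42) and KO+Mut against KO+WT (0.21 to 0.47). The same held for KO+Mut (0.13 to 0.36) and KO+WT (0.15 to 0.33) against parental. The reported fits did not use this pairing in any comparison, and only the replicate block, an alternative, did. For KO+Mut and KO+WT against KO, replicates 1 and 3 gave 0.29 to 0.36. Replicate 2 gave 0.08 and 0.06, under 0.1, and no pairing was assumed. Tables and figures used Python 3.11.15, pandas 2.3.3 and matplotlib 3.10.9.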

Additional observations from a re-analysis of the deposited data

How the results depend on the processing

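The number of members called in KO+WT against KO was 1 as reported, 0 after median centring, 0 in the fit of 6 arrays and 0 to 1 when an array was left out. It was 1 in KO+Mut against KO, and 0 to 1 when an array was left out. For KO+Mut against parental cells it was 1, and 2 (Fos and Jun) with the replicate block, with quantile normalization repeated, without genes under percentile 25 and with trend and robust variances, and 0 to 1 when an array was left out. In the other 3 comparisons it was 0 in every setting run. The replicate block changed no other call of a member. Among list genes in KO+Mut against KO, where replicates 1 and 3 but not 2 correlated above 0.1, the block gave adjusted p-values below the threshold. These were 0.0429 for Atf2, 0.028 for Timp1 and 0.0279 for Thy1. Over all genes, calls higher in KO+Mut against KO were 248 as reported, 480 with the block, 194 after centring and 109 to 192 with an array left out, and calls lower were 34, 236, 72 and 10 to 19. In KO+WT against KO they were 162, 353, 112 and 80 to 154 higher and 22, 141, 37 and 6 to 12 lower, and 71 higher and 4 lower in the fit of 6 arrays, where KO+Mut against KO had 195 and 12. In KO+Mut against parental they were 145, 353, 122 and 70 to 118 higher and 75, 342, 109 and 34 to 59 lower. In KO+WT against parental they were 71, 237, 59 and 34 to 102 higher and 51, 221, 62 and 16 to 31 lower (32 and 20 in the fit of 6). In KO against parental they were 8, 40, 8 and 0 to 3 higher and 45, 97, 35 and 18 to 29 lower (1 and 26 in the fit of 6).

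Of 54 differences of members, 25 changed sign in some setting, and 0 of these had passed the threshold before or after. When an array was left out, the differences in KO against parental ran from -0.15 to 0.10 for Junb, -0.15 to 0.34 for Jund, -0.065 to 0.023 for Fosb, -0.23 to 0.63 for Atf3 and -0.13 to 0.25 for Ier2. In KO+WT against KO they ran from -0.24 to 0.021 for Junb, -0.43 to 0.21 for Jund, -0.048 to 0.25 for Fosl2, -0.42 to 0.44 for Atf3 and -0.47 to 0.011 for Ier2. In KO+Mut against KO they ran from -0.15 to 0.10 for Junb, -0.41 to 0.14 for Jund, -0.086 to 0.77 for Atf3 and -0.16 to 0.16 for Ier2. In KO+Mut against KO+WT they ran from -0.024 to 0.21 for Junb and -0.38 to 0.26 for Jund. In KO+WT against parental they ran from -0.34 to 0.30 for Jund, -0.021 to 0.34 for Fosb, -0.25 to 0.044 for Fosl2, -0.022 to 0.46 for Atf3, -0.18 to 0.26 for Egr1 and -0.41 to 0.080 for Ier2. In KO+Mut against parental they ran from -0.15 to 0.078 for Junb, -0.29 to 0.23 for Jund and -0.11 to 0.23 for Ier2. Centring gave 0.0066 for Junb in KO against parental, -0.062 for Ier2 in KO+Mut against KO and -0.035 for Egr1 in KO+WT against parental, quantile normalization gave 0.036 for Jund and -0.033 for Egr1 in KO+WT against parental, and averaged probe sets gave 0.039 for Jund there. The cause of these changes was not tested.

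The arrays carry no detection calls here, so low signals such as those of Fosb, Fos and Egr1 cannot be separated from background. On KO and parental arrays Fos read 3.75 to 4.41 and Egr1 3.68 to 4.63, beside array medians of 3.73 to 3.88. With 3 arrays a group, the 95% intervals of the members' differences reach 0.36 to 0.79 to either side.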
